A study of Mus musculus with 38 samples.

Results

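After 14 h on immobilised anti-CD3 antibody, 2 mouse CD8 T cell clones labelled IL13-negative, 8uvmo-2 and 8uvmo-3, were compared with the alloreactive CD8 T cell clone CD8bm1. The 12 arrays carrying these labels, 4 per clone, were taken from the 38 arrays of the series. Each 8uvmo clone was averaged over its arrays, both clone means were given equal weight, and a gene was kept only where both lay on the same side of the CD8bm1 mean. The series sets IL13+ CD8 clones, called CD8γ13, beside IL13- clones and 1 alloreactive clone, each as dormant cells and after activation; the IL13- clones are, by elimination, its Tc1 clones. Differences are given below as IL13-negative minus CD8bm1.

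All clones grew in RPMI 1640 with 10% FBS, glutamax I and 2-mercaptoethanol. Activated cells of every clone met the same stimulus, antibody 145-2c11 coated at 0.5 ug/ml, and dormant cells of the same clones were the resting controls. The phenotype labels are CD8IL13- for 8uvmo-2 and 8uvmo-3, allo CD8 for CD8bm1, and CD8IL13+ for sAg1 and sAg3. The labels give neither strain nor age. The alloreactive side of the comparison is 1 clone and the other side is 2, so that what distinguishes alloreactive cells and what distinguishes CD8bm1 cannot be told apart. The labels do not say that the 4 arrays of a group came from separate cultures, so that p-values reflect the scatter among arrays of a group, possibly technical.

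A CD8 T cell that meets antigen signals through its T cell receptor and the CD3 chains to the transcription factors NFAT, AP-1 and NF-kB, which switch on cytokine, chemokine and surface receptor genes within hours. Type 1 CD8 effector cells (Tc1) are known for interferon gamma, TNF and cytolytic granules. Alloreactive cells recognise MHC molecules of another individual. An antibody to CD3 bypasses the specificity of the receptor, so clones of different specificity can be activated in the same way.

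Values are log2 intensities, on which 1 unit is a factor of 2. The 1035 olfactory receptor probe sets, whose genes are not known to be used by T cells, had a median of 4.64 and 98.6% of their values under 7, and a mean under 7 is called near background here. A fold change against a near-background group is given as "at least". Over the probe sets with a gene name, the 12 arrays had medians between 7.03 and 7.09, and arrays of 1 group correlated at 0.993 to 0.998. In activated 8uvmo-3, replicates 1 and 3 stood apart from replicates 2 and 4: 193 of 23410 probe sets separated the pairs by 0.5 log2 or more and 8 by 1 or more, against at most 28 and 1 for any other 2 by 2 split of the 3 activated groups. Among named genes, Sesn2 (-0.95) and Trib3 (-0.99) missed the minimum of 1 without replicates 1 and 3. Klrg1, Bub1, Aldoc and Dhcr7 lost their call without replicates 2 and 4.

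All 3 clones carried T cell transcripts. Of the 11 CD8 T cell identity genes, all were above 7 in both IL13-negative clones and 10 in CD8bm1, the exception being Cd2. Cd8a averaged 12.58, 12.76 and 11.93 and Cd8b1 12.09, 11.78 and 12.73 in 8uvmo-2, 8uvmo-3 and CD8bm1. None of the 4 measured erythroid and platelet markers reached 7 in any of the 3 clones. The B cell, macrophage and mast cell genes Ms4a1, Cd79a, Csf1r, Adgre1, Lyz2, Kit and Fcer1a were all under 7, but other markers were not. Of 9 B cell markers, 1 averaged 7 or more in each clone. Of 19 macrophage and dendritic cell markers, 2, 1 and 2 did so in 8uvmo-2, 8uvmo-3 and CD8bm1. In the same order, 1, 1 and 0 of 16 neutrophil, mast cell and basophil markers did. So did 7, 8 and 5 of 19 stromal, endothelial and epithelial markers, a list that includes Thy1. Thy1 is also among the CD8 T cell identity genes, so these counts are not free of T cell signal. Array medians over the 19 macrophage and dendritic cell markers were 5.88 to 6.07 in 8uvmo-2 and 5.92 to 6.09 in 8uvmo-3, against 5.96 to 6.17 in CD8bm1.

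Differences between the activated clones were called by limma at a Benjamini-Hochberg adjusted p under 0.05 with a difference of at least 1. Of 23410 probe sets with a gene name, 1104 were called, or 4.72%: 609 were higher in the IL13-negative clones (2.6%) and 495 lower (2.11%). In genes, with 1 probe set each, 960 of 19938 were called (4.81%), 542 higher (2.72%) and 418 lower (2.1%). In 566 of the 609 and 469 of the 495, no array of either IL13-negative clone overlapped an array of CD8bm1; over all probe sets the arrays did not overlap in 9.85% on the higher side and 8.93% on the lower. The difference reached 4 or more for 33 probe sets on the higher side and 27 on the lower. Where the clones were taken singly, 663 probe sets were higher and 477 lower in 8uvmo-2, and 769 and 626 in 8uvmo-3; 393 and 336 met the rule in both.

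These calls rest on arrays as samples. A further fit took 1 mean per clone as the sample and the spread from the 2 IL13-negative and the 2 IL13+ clones. In it limma called 46 probe sets, 14 higher and 32 lower. Of all 23410 probe sets, 1461 had an unadjusted p under 0.05. By chance alone a share of about 0.05 would pass that threshold, so the count of 1461 is not far from the chance level. Ly6e, Slc44a1 and Adgrg7 were the named genes that kept their call in that fit. With the clone as a random block (within-clone correlation 0.378), 911 were called, 496 higher and 415 lower. In that fit 22 named genes lost their call; those not given with their p below are Itgax, Cxcr6, Pdcd1lg2, Lag3, Bub1, Tpx2, Cdkn2a, Aldoc, Scd2, Sesn2, Casp4, Mcpt8 and Pecam1, with adjusted p from 0.0659 to 0.653.

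Inflammatory cytokine genes were higher in the IL13-negative clones. Of 23 measured type 1 and inflammatory cytokine genes, 14 were higher and 0 lower at adjusted p under 0.05 without a minimum difference, where 15.8% of all genes were higher and 14.7% lower by the same rule. Counts of list members below use this rule unless another is given, and these shares over all genes apply to each. The median difference of the list was 0.77, against -0.03 over all genes. With the minimum of 1, Csf1, Il3, Csf2, Lta, Tnfsf14, Ltb, Il2, Tnf, Il18 and Osm were called.

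Tnf encodes tumour necrosis factor. The arrays of 8uvmo-2 read 13.29, 13.54, 13.23 and 13.46, those of 8uvmo-3 13.67, 13.73, 13.55 and 13.78, and those of CD8bm1 11.47, 11.45, 11.11 and 11.42. Every IL13-negative array was above every CD8bm1 array. The difference was 2.17 (SE 0.10; limma adjusted p = 1.81e-19), or 4.5-fold. Its neighbours on chromosome 17, Lta and Ltb, which encode the lymphotoxins, were called too, with differences of 2.84 and 2.39.

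Ifng, the type 1 effector cytokine, was near the top of the scale in all 3 clones: 14.18, 14.22, 14.14 and 14.13 in 8uvmo-2, 14.12, 14.19, 14.15 and 14.22 in 8uvmo-3, and 13.66, 13.33, 13.69 and 13.68 in CD8bm1. The highest values on these arrays were 14.31 to 14.39. The groups did not overlap, but the difference was small, 0.58 (SE 0.07; limma adjusted p = 5.92e-09), and under the minimum. Dormant CD8bm1 held less Ifng (8.96 ± 0.10, SD, n = 4) than dormant 8uvmo-2 (11.14 ± 0.21) and 8uvmo-3 (11.82 ± 0.08), a difference of 2.52.

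The growth factor genes split the IL13-negative clones. Csf2, which encodes GM-CSF, read 11.79, 11.82, 10.87 and 11.29 in 8uvmo-2, 6.77, 8.83, 7.51 and 8.82 in 8uvmo-3, and 5.87, 5.90, 5.93 and 5.64 in CD8bm1. Il3, encoding a growth factor of myeloid progenitors, read 11.78, 11.86, 11.61 and 11.23 in 8uvmo-2, 6.58, 6.33, 5.75 and 7.02 in 8uvmo-3, and 4.87, 4.85, 5.24 and 5.14 in CD8bm1. For both genes 8uvmo-2 was high in every array and 8uvmo-3 lay between it and CD8bm1. The difference from CD8bm1 was 3.88 for Csf2 (SE 0.24; limma adjusted p = 9.39e-16) and 4.00 for Il3 (SE 0.16; limma adjusted p = 4.34e-21), and 8uvmo-2 exceeded 8uvmo-3 in Il3 by 5.20. With the clone as a random block, the adjusted p for Il3 was 0.0577.

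Il2, the T cell growth factor gene, was above background in 8uvmo-2, with 8.48, 9.38, 7.94 and 7.97. In 8uvmo-3 it lay around the level of 7, with 6.63, 7.59, 6.81 and 7.23. CD8bm1 read 5.52, 5.22, 5.57 and 5.18, below all of them. The difference was 2.38 (SE 0.17; limma adjusted p = 9.44e-14), at least 5.21-fold. Csf1, which encodes the macrophage growth factor M-CSF, was 10.97 ± 0.34 in 8uvmo-2 and 10.36 ± 0.21 in 8uvmo-3, against 6.50 ± 0.05 in CD8bm1 (SD, n = 4 each), at least 18.0-fold higher. It was also high in dormant 8uvmo-2 (11.09) and 8uvmo-3 (9.89), against 5.69 in dormant CD8bm1.

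Type 2 cytokine genes did not separate these clones. Il4 and Il5 averaged under 7 in all 3 and did not pass the test. Il13 averaged 7.81 in 8uvmo-2 and 6.52 in 8uvmo-3, against 6.59 in CD8bm1, on opposite sides of the latter, while the IL13+ clones stood at 9.51 (sAg1) and 12.78 (sAg3). Of 13 measured type 2 and regulatory cytokine genes, 2 were higher and 1 lower, where 15.8% of all genes were higher and 14.7% lower. The called ones were Il24, at 1.93, and Penk, the proenkephalin gene, at -2.10; with the clone as a random block their adjusted p was 0.226 and 0.291. Il10 went opposite ways: 11.20, 11.70, 11.04 and 11.09 in 8uvmo-2, 5.46, 5.88, 5.14 and 5.51 in 8uvmo-3, and 10.26, 9.93, 10.12 and 10.03 in CD8bm1. Neither IL13-negative clone overlapped CD8bm1 in Il10, and they lay on either side of it.

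**Figure D1:**
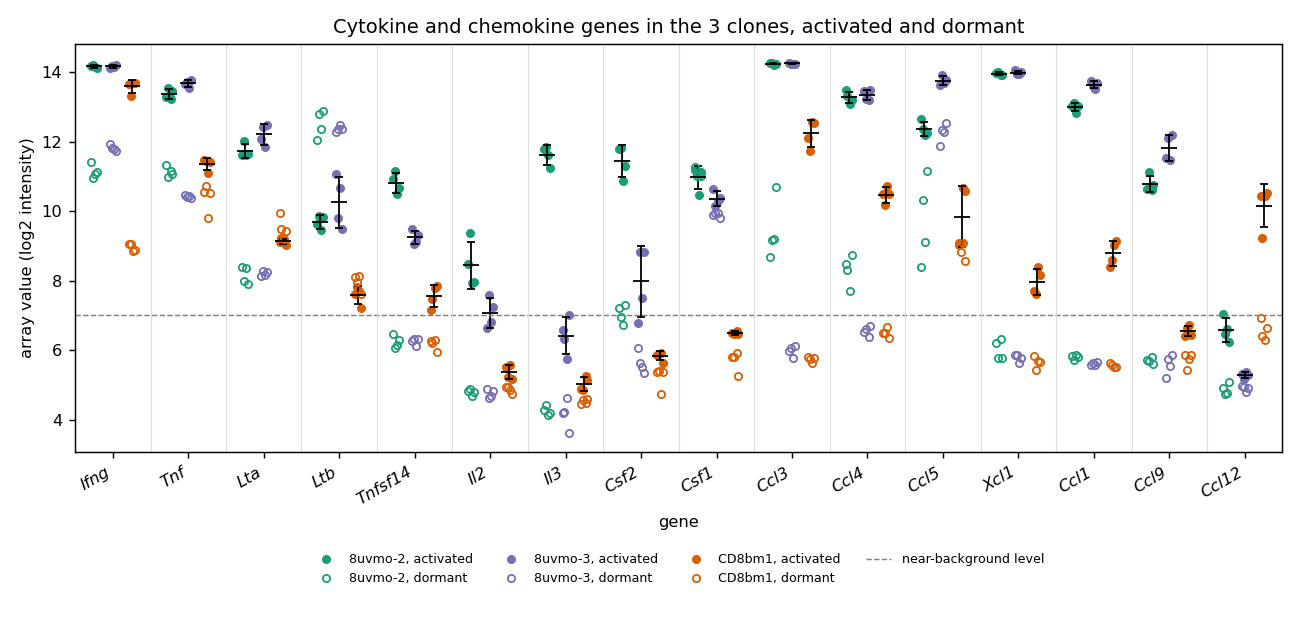
Log2 intensity of 16 cytokine and chemokine genes on each array of 8uvmo-2, 8uvmo-3 and CD8bm1; filled points are activated arrays, open points dormant arrays, and bars the mean and SD of the 4 activated arrays. The dashed line at 7 is the near-background level. Xcl1, Ccl1 and Ccl9 start from near background in all 3 dormant clones and end far apart, whereas Csf1 and Ltb differ in both states.

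Chemokine genes held some of the largest differences. Of 26 measured ligands, 10 were higher and 1 was lower without a minimum, beside 15.8% and 14.7% of all genes. With the minimum, Xcl1, Ccl9, Ccl1, Ccl5, Ccl4 and Ccl3 were called higher and Ccl12 lower. Xcl1 encodes lymphotactin, which draws cross-presenting dendritic cells. It read 13.99, 14.01, 13.91 and 13.92 in 8uvmo-2, 14.06, 13.95, 13.96 and 14.00 in 8uvmo-3, and 7.69, 7.62, 8.40 and 8.17 in CD8bm1. The IL13-negative arrays were all near the top of the scale and the CD8bm1 arrays little above background, a difference of 6.0 (SE 0.13; limma adjusted p = 7.94e-29), or 64.2-fold.

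Ccl1, a ligand of the receptor CCR8, read 13.03, 13.12, 12.83 and 13.02 in 8uvmo-2, 13.76, 13.61, 13.52 and 13.68 in 8uvmo-3, and 8.39, 8.58, 9.04 and 9.13 in CD8bm1. The groups were far from overlap, and the difference of 4.54 (SE 0.09; limma adjusted p = 9.58e-30) was 23.2-fold. Ccl9, a ligand of CCR1, averaged 10.79 ± 0.23, 11.83 ± 0.38 and 6.55 ± 0.15 (SD, n = 4 each), at least 27.0-fold higher in the IL13-negative clones. Ccl12, a monocyte attractant, ran the other way: 7.05, 6.45, 6.61 and 6.24 in 8uvmo-2, 5.31, 5.17, 5.36 and 5.29 in 8uvmo-3, and 10.44, 9.24, 10.43 and 10.53 in CD8bm1. Of these clones CD8bm1 alone had a mean above 7, at least 18.7-fold higher.

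Ccl3, Ccl4 and Ccl5, chemokine genes of effector CD8 cells, were expressed by all 3 clones at different levels. Ccl3 averaged 14.25 ± 0.02 in both IL13-negative clones and 12.24 ± 0.39 in CD8bm1, and Ccl4 averaged 13.28, 13.35 and 10.47. Ccl5 read 12.65, 12.36, 12.19 and 12.24 in 8uvmo-2, 13.62, 13.92, 13.70 and 13.77 in 8uvmo-3, and 9.07, 9.08, 10.66 and 10.57 in CD8bm1. The CD8bm1 arrays fell into 2 low and 2 higher ones, all below the IL13-negative arrays. The difference was 2.01 for Ccl3, which in the IL13-negative clones lay at the top of the scale and may be understated, 2.84 for Ccl4 and 3.21 for Ccl5; for Ccl3 the adjusted p was 0.183 with the clone as a random block.

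The promoters are shown for the 4 genes whose difference grew most, in the higher direction, between the dormant and activated states: Xcl1, Olr1, Ccl9 and Ccl1. These genes were near background in all 3 dormant clones, which was not part of the choice. Each line gives the 250 bases before the transcription start, 5′ to 3′ on the gene's strand, from RefSeq (GRCm38.p6). Capitals mark matches on either strand to the NFAT core GGAAA, the AP-1 site TGANTCA and the NF-kB motif, which is GGGA and TTCC with any 2 bases between.
Xcl1, chr1:164935523-164935772, minus strand: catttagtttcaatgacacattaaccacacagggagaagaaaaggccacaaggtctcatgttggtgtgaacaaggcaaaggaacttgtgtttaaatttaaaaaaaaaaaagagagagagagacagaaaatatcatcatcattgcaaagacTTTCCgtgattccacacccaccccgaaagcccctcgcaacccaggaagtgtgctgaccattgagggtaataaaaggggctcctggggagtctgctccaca
Olr1, chr6:129507166-129507415, minus strand: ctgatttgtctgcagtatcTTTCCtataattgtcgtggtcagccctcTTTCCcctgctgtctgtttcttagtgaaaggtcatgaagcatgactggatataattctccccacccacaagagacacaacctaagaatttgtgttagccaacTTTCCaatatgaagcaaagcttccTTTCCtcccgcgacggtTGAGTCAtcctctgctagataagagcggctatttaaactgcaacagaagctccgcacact
Ccl9, chr11:83578637-83578886, minus strand: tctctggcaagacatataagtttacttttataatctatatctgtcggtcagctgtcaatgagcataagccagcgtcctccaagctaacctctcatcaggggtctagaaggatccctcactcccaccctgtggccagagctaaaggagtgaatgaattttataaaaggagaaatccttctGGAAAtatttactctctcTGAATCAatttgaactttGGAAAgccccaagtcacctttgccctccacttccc
Ccl1, chr11:82179813-82180062, minus strand: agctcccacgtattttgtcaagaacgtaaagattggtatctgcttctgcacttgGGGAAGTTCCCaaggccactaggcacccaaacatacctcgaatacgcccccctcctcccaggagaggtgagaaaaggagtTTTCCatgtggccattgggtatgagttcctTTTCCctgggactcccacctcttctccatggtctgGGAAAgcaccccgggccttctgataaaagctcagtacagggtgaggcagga

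The AP-1 site was matched in the windows of Olr1 (bases -60 to -54 from the start) and Ccl9 (-53 to -47). In Ccl1 the NF-kB motif was matched on both strands, overlapping, over bases -196 to -186. The NFAT core was matched 1 time in Xcl1, 4 times in Olr1, 2 times in Ccl9 and 3 times in Ccl1. Of 32851 promoter windows of the same length, 6.75% held the AP-1 letters, 1.21% the NF-kB letters and 55.6% the NFAT letters, so a core match is common. A match describes the letters and does not show binding.

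Each of these 4 genes differed little between the dormant clones. Dormant Xcl1 averaged 6.01 ± 0.28 in 8uvmo-2 and 5.78 ± 0.11 in 8uvmo-3, against 5.66 ± 0.16 in CD8bm1 (SD, n = 4 each). The difference was thus found in the activated arrays, and the change from the dormant to the activated difference was 5.77 for Xcl1, 5.20 for Olr1, 4.83 for Ccl9 and 4.38 for Ccl1. Olr1, which encodes the oxidised LDL receptor LOX-1, read 10.57, 11.34, 10.56 and 10.86 in 8uvmo-2, 10.14, 10.25, 9.91 and 10.54 in 8uvmo-3, and 5.33, 4.99, 4.78 and 5.29 in CD8bm1, at least 42.9-fold higher. CD8bm1 stayed near background for Olr1 and Ccl9 in both states.

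Over all probe sets, 976 changed their difference between the states by the same threshold (4.17%), 444 upward (1.9%) and 532 downward (2.27%). Among the upward ones, Il33, which encodes an alarmin, reached 8.77 ± 0.39 in 8uvmo-2 and 11.47 ± 0.69 in 8uvmo-3 but 5.48 ± 0.26 in CD8bm1. Crtam, an adhesion receptor of activated cytotoxic cells, read 11.53, 11.58, 11.15 and 11.30 in 8uvmo-2, 11.74, 11.15, 11.27 and 11.28 in 8uvmo-3, and 6.28, 6.18, 6.96 and 6.70 in CD8bm1. All CD8bm1 arrays were near background and all others above 11. Lta reversed order: in the dormant state it was 9.51 ± 0.32 in CD8bm1 against 8.16 and 8.21, and after activation 9.13 ± 0.07 against 11.72 and 12.21.

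Among the downward changes the largest was that of Ripor2, with -4.10. Ripor2 went from 10.09 and 10.61 in dormant 8uvmo-2 and 8uvmo-3 to 6.62 and 7.02 in the activated clones, with CD8bm1 at 5.65 and 6.22. Ifi206 and Ifi203, of the interferon-inducible p200 family, Prss12, Dzip1 and the receptor gene Lilr4b had changes of -3.35, -3.35, -3.56, -3.14 and -3.18. Klrd1, which encodes CD94, was higher than CD8bm1 by 2.47 in the dormant clones while in the activated ones the difference was -0.93. The dormant 8uvmo-2 arrays fall into replicates 1 and 3 and replicates 2 and 4, with 439 probe sets apart by 1 or more. Without the first pair 1191 changes were called and without the second 933. Dormant CD8bm1 split the same way to a lesser extent, with 27 probe sets apart by 1 or more and 355 by 0.5 or more. The effect of leaving out either CD8bm1 pair was not tested.

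**Figure D2:**
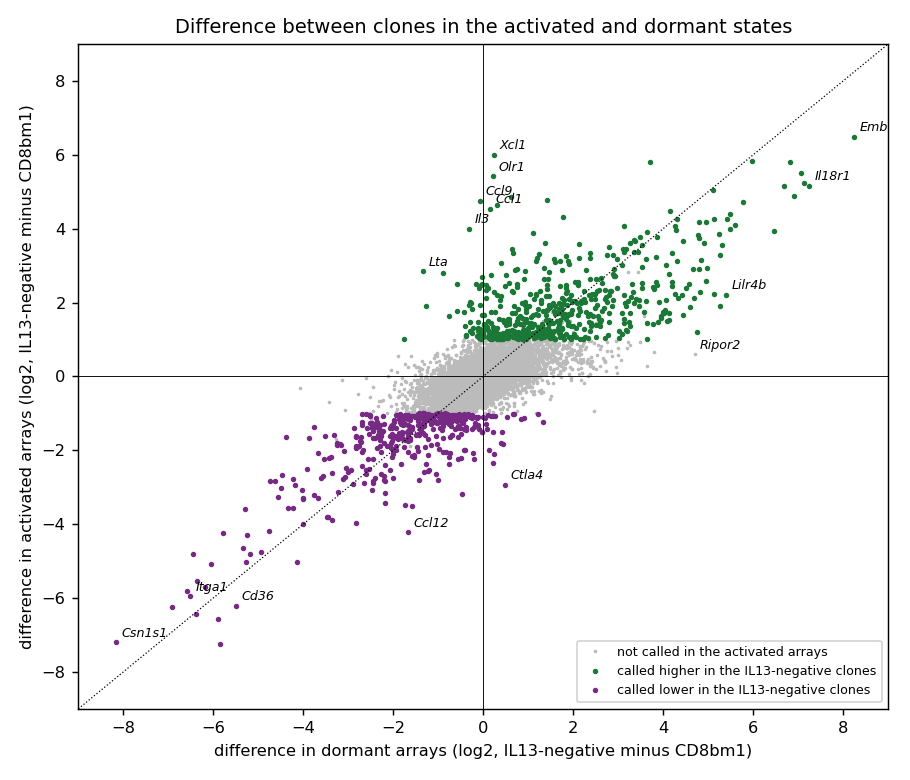
Difference between the IL13-negative clones and CD8bm1 for 19938 genes, 1 probe set each, in dormant arrays (horizontal axis, log2) and activated arrays (vertical axis, log2). Coloured genes were called in the activated arrays; the dotted line marks equal differences. Many genes lie along the line, while Xcl1, Olr1, Ccl9, Ccl1 and Il3 lie near 0 on the dormant axis.

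Most differences of the activated clones were also present in the dormant clones, which were measured on other arrays. In the dormant state 1726 probe sets were called (7.37%), 942 higher (4.02%) and 784 lower (3.35%). Of the 609 called higher after activation, 390 (64%) were called higher in the dormant clones, 3 lower and 216 neither; these are 41.4% of the dormant calls in that direction. Of the 495 called lower, 341 (68.9%) were called lower in the dormant clones, 2 higher and 152 neither, 43.5% of the dormant calls.

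Adhesion genes differed in both directions. Of 26 measured integrin genes, 6 were higher and 6 lower without a minimum, where 15.8% of all genes were higher and 14.7% lower. Itga1 encodes CD49a, the alpha chain of the collagen receptor α1β1, and Itgb1 its beta chain. Itga1 read 6.89, 6.70, 6.47 and 6.50 in 8uvmo-2, 5.77, 5.94, 5.28 and 5.67 in 8uvmo-3, and 12.10, 12.25, 12.04 and 12.01 in CD8bm1. The IL13-negative clones were near background in every array, and the difference was -5.95 (SE 0.11; limma adjusted p = 2.43e-30), at least 61.7-fold.

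Itgb1 read 6.26, 6.34, 8.35 and 6.55 in 8uvmo-2, 6.35, 5.89, 5.72 and 6.28 in 8uvmo-3, and 11.31, 11.28, 11.29 and 11.18 in CD8bm1. Apart from 1 array of 8uvmo-2 at 8.35, all IL13-negative arrays were near background, and the difference was -4.80. Itga2, Itgav and Itgb3 were called lower with differences of -1.12, -1.32 and -1.02, of which Itga2 overlapped CD8bm1 in 8uvmo-2 and Itgb3 in 8uvmo-3. Itgax, encoding CD11c, was called lower at -2.24 but only 8uvmo-3 lacked it: the means were 10.10, 5.96 and 10.28.

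The integrin genes higher in the IL13-negative clones included both chains of α4β7, the receptor for the mucosal addressin. Itga4 read 7.41, 7.94, 9.40 and 8.21 in 8uvmo-2, 10.12, 10.02, 10.25 and 9.77 in 8uvmo-3, and 6.03, 6.24, 6.01 and 6.19 in CD8bm1. Itgb7 read 8.08, 7.88, 8.08 and 8.12 in 8uvmo-2, 10.56, 9.67, 10.46 and 9.14 in 8uvmo-3, and 7.05, 6.77, 6.55 and 6.73 in CD8bm1. Both were lowest in CD8bm1 without overlap and highest in 8uvmo-3, with differences of 3.02 and 2.22. Itgb2, the common chain of the leukocyte integrins such as LFA-1, was higher by 1.07.

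Of 29 measured chemokine and homing receptor genes, 11 were higher and 3 lower, beside 15.8% and 14.7% of all genes. Cd44, the hyaluronan receptor usually present on antigen-experienced T cells, read 11.33, 11.14, 11.05 and 11.05 in 8uvmo-2, 8.29, 7.69, 7.68 and 7.71 in 8uvmo-3, and 6.25, 6.28, 6.09 and 6.01 in CD8bm1. It was thus near background on this probe set in the alloreactive clone, at least 10.1-fold lower. Ccr1, a receptor for CCL3 and CCL9, was higher by 2.03, and Ptger2 and Ptger4, receptors for prostaglandin E2, by 2.31 and 1.52. Cxcr6, a tissue residency receptor, was called at 3.28 mainly through 8uvmo-3 (11.78 ± 0.22), since 8uvmo-2 averaged 6.65 ± 0.27 and CD8bm1 5.93 ± 0.20. Ltb4r1, a leukotriene B4 receptor, was lower, with a difference of -1.07. Ccr8, the receptor for CCL1, averaged under 7 in all 3 clones and did not pass the test, against 9.28 in sAg1 and 8.15 in sAg3.

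**Figure D3:**
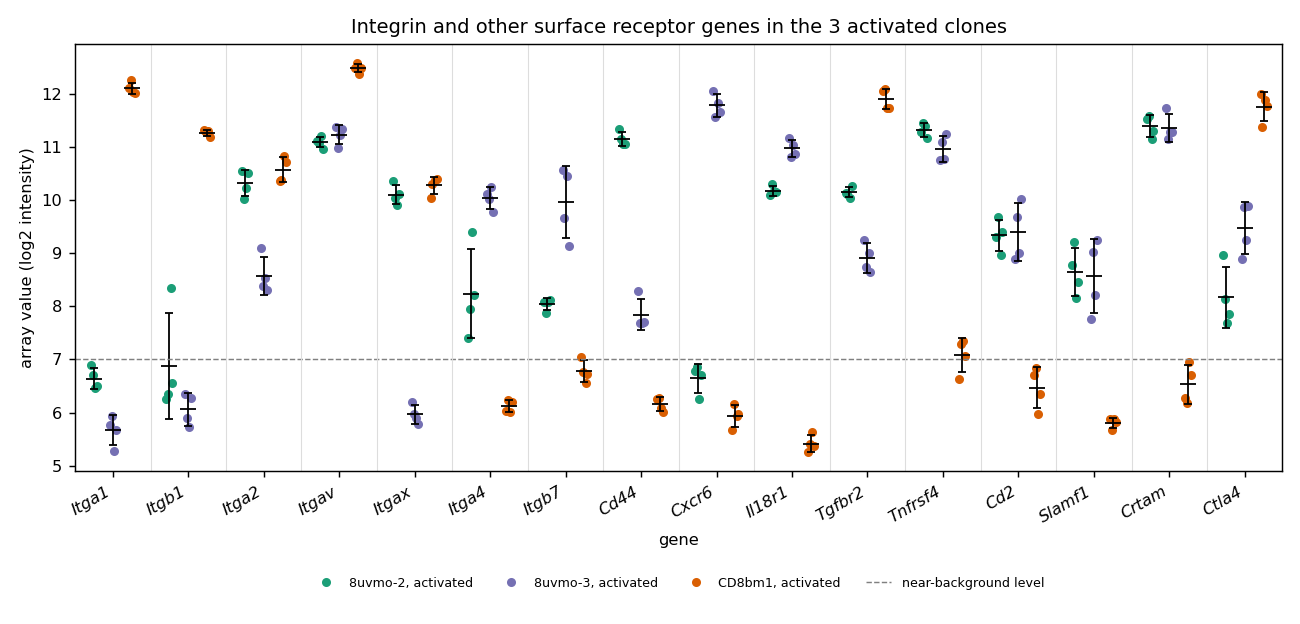
Log2 intensity of 16 integrin and other surface receptor genes on each activated array of 8uvmo-2, 8uvmo-3 and CD8bm1, with the mean and SD of 4 arrays; the dashed line at 7 is the near-background level. Itga1, Itgb1, Tgfbr2 and Ctla4 are highest in CD8bm1, and Il18r1, Tnfrsf4, Cd2, Slamf1 and Crtam highest in both IL13-negative clones.

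The main cytolytic effector genes read close to the top of the scale in all 3 clones, where differences may be compressed. Gzmb (14.09, 13.99 and 13.90), Gzma (13.54, 13.64 and 13.34) and Prf1 (13.66, 13.32 and 13.43 in 8uvmo-2, 8uvmo-3 and CD8bm1), encoding granzymes B and A and perforin, were within 0.35 of each other between clones. Fasl was higher by 0.44, under the minimum. Of the 31 measured cytolytic granule genes, 17 were higher and 6 lower without a minimum, beside 15.8% and 14.7% of all genes. Serpinb9 and Serpinb6b encode inhibitors of granule proteases. Serpinb9 read 12.59, 12.54, 12.39 and 12.36 in 8uvmo-2, 11.88, 11.93, 11.64 and 12.07 in 8uvmo-3, and 9.89, 9.25, 10.83 and 10.37 in CD8bm1, lower in each CD8bm1 array, with a difference of 2.09. Serpinb6b was higher by 2.90, 7.48-fold; with the clone as a random block the adjusted p for Serpinb9 was 0.139.

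Serpinb6a and the granzyme gene Gzmn were lower in the IL13-negative clones. Gzmn read 7.80, 7.09, 7.10 and 7.04 in 8uvmo-2, 6.20, 6.01, 6.16 and 5.99 in 8uvmo-3, and 9.97, 10.22, 9.70 and 9.95 in CD8bm1, a difference of -3.29 without overlap. The granzyme genes of this cluster are similar in sequence and their signals may be shared. Gzmc went opposite ways, 12.44 in 8uvmo-2 and 10.49 in 8uvmo-3 against 11.40. The secretion genes Unc13d, Stx11 and Lyst, whose human counterparts are mutated in familial haemophagocytic and Chediak-Higashi disease, were higher by 1.38, 1.34 and 1.70, and Ctsw, a cathepsin of cytotoxic cells, by 1.83.

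Of 31 measured receptors of the NK and killer lectin family, 15 were higher and 2 lower, and 15 were near background in all 3 clones. The shares over all genes by this rule were 15.8% higher and 14.7% lower. Beside Crtam, the called ones were Lilr4b (2.21), Lilrb4a (2.20), Klrk1 (1.50), which encodes NKG2D, its adaptor Hcst (1.06), Slamf7 (1.26) and Cd244a (1.07). Klrg1, a marker of terminal effector cells, was called lower at -1.57, but the means were 8.30 in 8uvmo-2 and 11.13 in 8uvmo-3, against 11.29 in CD8bm1. The adjusted p for Klrg1 was 0.638 with the clone as a random block, and the call was lost without 8uvmo-3 replicate 4.

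Cytokine receptor genes included Il18r1, the ligand-binding chain of the IL-18 receptor, through which IL-18 augments interferon gamma. It read 10.09, 10.31, 10.16 and 10.15 in 8uvmo-2, 11.16, 10.81, 11.04 and 10.87 in 8uvmo-3, and 5.26, 5.40, 5.63 and 5.37 in CD8bm1. The IL13-negative arrays were all above 10 and the CD8bm1 arrays near background, a difference of 5.16 (SE 0.11; limma adjusted p = 3.15e-29), at least 35.7-fold. It was near background in dormant CD8bm1 too (4.68), against 11.52 and 12.35 in the dormant IL13-negative clones. The accessory chain gene Il18rap was expressed by all 3, at 10.96, 11.37 and 10.40.

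Of 39 measured genes in the list of cytokine receptors and SOCS proteins, 19 were higher and 7 lower, beside 15.8% and 14.7% of all genes. The list also holds the ligand gene Csf1, among the higher ones and counted above with the cytokines. Il10rb and Il10ra, the chains of the IL-10 receptor, were higher by 2.29 and 1.42, Il21r by 1.30 and Il12rb1 by 1.04. Tgfbr2, the ligand-binding TGF-beta receptor, read 10.14, 10.12, 10.04 and 10.27 in 8uvmo-2, 9.25, 8.74, 9.01 and 8.64 in 8uvmo-3, and 12.05, 12.08, 11.74 and 11.73 in CD8bm1. CD8bm1 was highest in every array, with a difference of -2.37, or 5.18-fold, while Tgfbr1 was higher in the IL13-negative clones by 1.07. Il7r was called lower at -1.23, where 8uvmo-2 (11.08) was close to CD8bm1 (11.28) and 8uvmo-3 stood at 9.01. Il2ra and Il2rb, chains of the IL-2 receptor, differed by -0.34 and 0.22 at levels near 13.

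Among costimulatory receptors, 13 of 27 were higher and 5 lower, beside 15.8% and 14.7% of all genes. Tnfrsf4 encodes OX40. It read 11.28, 11.44, 11.39 and 11.16 in 8uvmo-2, 10.75, 11.10, 10.77 and 11.24 in 8uvmo-3, and 6.63, 7.29, 7.35 and 7.06 in CD8bm1, with the CD8bm1 arrays far below the rest. The difference was 4.06 (SE 0.13; limma adjusted p = 4.44e-24), or 16.7-fold. Cd2, the CD48 receptor, was higher by 2.90, Slamf1 by 2.80, Tnfrsf18 (GITR) by 2.17, Cd6 by 2.13 and Fas by 1.80. Tnfrsf8, which encodes CD30, was lower, with a difference of -1.86. Cd28 and Icos were expressed by all 3 clones and were lower by less than the minimum, with differences of -0.53 and -0.44.

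The list of inhibitory receptors, which also holds a ligand gene and a phosphatase gene, gave 5 higher and 1 lower of 21. By the same rule 15.8% of all genes were higher and 14.7% lower. Ctla4, which competes with CD28 for its ligands, read 8.97, 8.14, 7.69 and 7.86 in 8uvmo-2, 8.89, 9.86, 9.25 and 9.89 in 8uvmo-3, and 11.99, 11.37, 11.89 and 11.77 in CD8bm1. CD8bm1 was highest without overlap, and the difference was -2.94 (SE 0.37; limma adjusted p = 4.1e-08). In the dormant clones Ctla4 stood at 10.35 ± 1.62, 9.93 ± 0.29 and 9.66 ± 0.63, and the change of the difference between the states was -3.41. Ptpn6, the phosphatase SHP-1, was higher by 2.67, and Pdcd1lg2, a ligand gene, and the receptor gene Lag3 by 1.23 and 1.01. Only Lag3 of these encodes a receptor. Both Pdcd1lg2 and Lag3 lost their call with the clone as a random block. For Lag3 the difference fell just under 1 without 8uvmo-2 replicate 2 or 4, 8uvmo-3 replicate 4 or CD8bm1 replicate 3. Pdcd1, which encodes PD-1, was high in 8uvmo-3 (12.56 ± 0.12) and not in 8uvmo-2 (7.97 ± 0.20) or CD8bm1 (8.40 ± 0.06).

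Of 40 genes known to be induced through the receptor, 21 were higher in the IL13-negative clones, 4 were lower and 15 did not pass, against 15.8% higher and 14.7% lower over all genes. Egr2, a transcription factor induced by NFAT, read 11.30, 11.47, 11.15 and 11.49 in 8uvmo-2, 12.54, 12.15, 12.16 and 12.28 in 8uvmo-3, and 8.36, 8.31, 8.66 and 8.63 in CD8bm1. No array overlapped, and the difference was 3.33 (SE 0.09; limma adjusted p = 9.19e-26), or 10.0-fold. In dormant cells the means were 6.71, 7.13 and 6.25. The orphan receptor genes Nr4a1, Nr4a3 and Nr4a2 were higher by 2.51, 1.74 and 1.00, the AP-1 subunit Fosl1 by 2.38, the phosphatase Dusp2 by 2.17, Nfatc1 by 2.00 and the NF-kB subunit Rel by 1.93. Jun was lower by less than the minimum (-0.95), and Rgs2, a regulator of G protein signalling, was lower, with a difference of -1.82.

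Genes of the receptor complex and its proximal signalling gave 13 higher and 5 lower of 31, beside 15.8% and 14.7% of all genes. The lower share is near that of all genes. The adaptors Lat, Grap2 and Themis were higher by 1.40, 1.50 and 1.32, the kinases Fyn and Prkcq by 1.70 and 1.94, and Ubash3b, a phosphatase that restrains the receptor, by 3.09 (11.13 in 8uvmo-2 and 8.20 in 8uvmo-3, against 6.58 in CD8bm1). Tec, Plcg1 and the ubiquitin ligase gene Cblb were lower, with differences of -1.28, -1.16 and -1.27. Dgkz was called at 1.59 on 1 probe set, and its other probe set gave -0.02. Cd3d, Cd247 and Zap70 did not pass the test and Cd3e differed by 0.17.

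**Figure D4:**
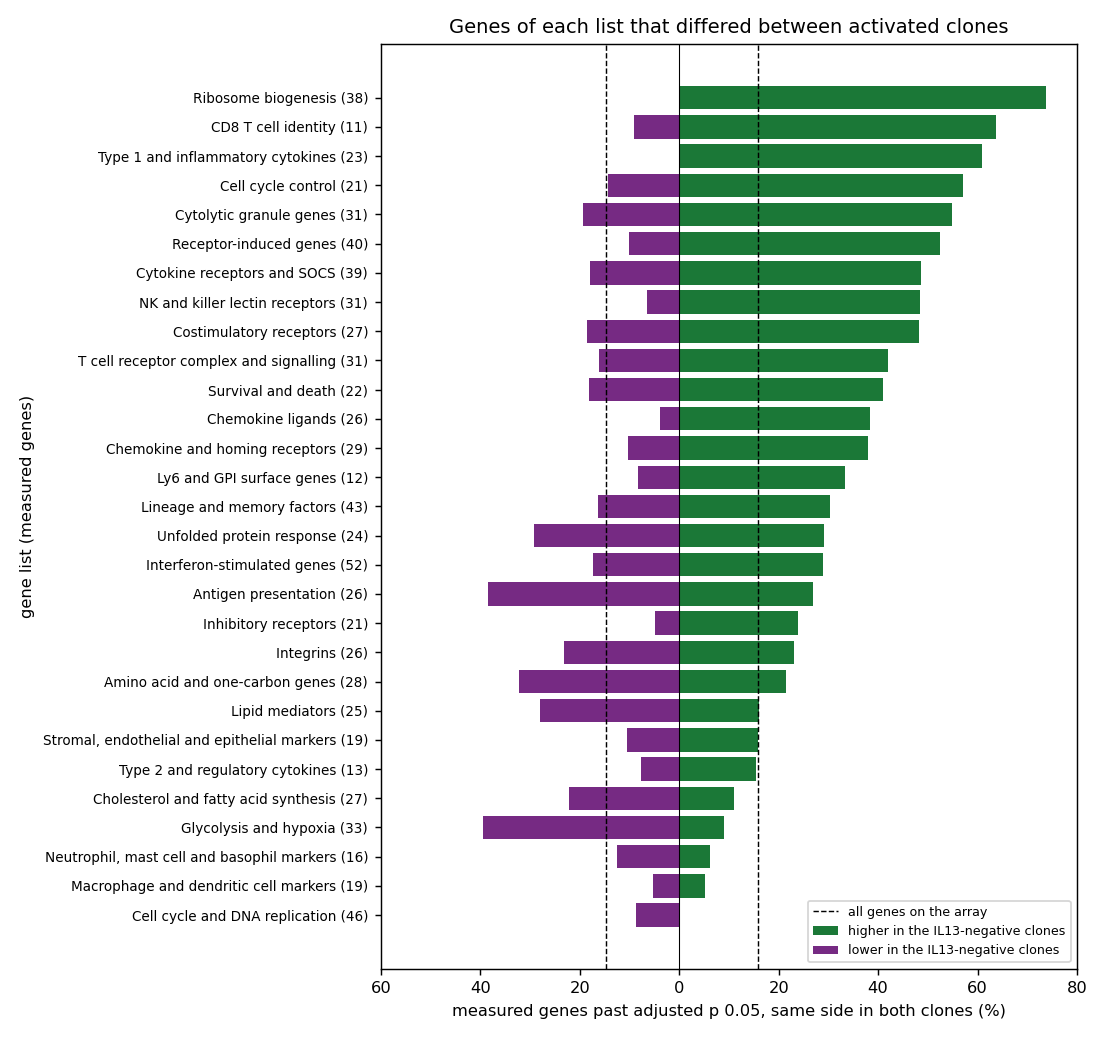
Share of the measured genes of each list that were higher (right, green) or lower (left, purple) in the activated IL13-negative clones at adjusted p under 0.05 with both clones on the same side and no minimum difference, for lists with 10 or more measured genes. Dashed lines mark the shares over all genes, 15.8% higher and 14.7% lower. Ribosome biogenesis, CD8 identity and type 1 cytokine genes have the longest bars to the right, and glycolysis and antigen presentation genes those to the left.

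Lineage transcription factors gave 13 higher and 7 lower of 43, beside 15.8% and 14.7% of all genes. The lower share is near that of all genes. Tbx21, the Tc1 factor T-bet, was expressed by all 3 clones at 10.97 ± 0.13, 11.34 ± 0.09 and 10.54 ± 0.04, higher by 0.61. Gata3 (9.06, 8.80 and 8.98) and Eomes (5.61, 6.59 and 5.63) were not called. Runx1 was higher by 2.23, Rora by 2.11, Stat4, which carries the IL-12 signal, by 1.65, Ahr by 1.55 and Stat5a by 1.03. Ikzf2, which encodes Helios, was higher by 1.39, at 7.90, 8.18 and 6.65. The adjusted p for Rora was 0.065 with the clone as a random block.

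The list of interferon-stimulated genes held 52 measured members, 15 higher and 9 lower; the lower share is near the 14.7% of all genes. Ifi209 (2.96), Ifi203 (1.91), Slfn1 (1.79), Ifih1 (1.62), Gbp5 (1.61) and Mx1 (1.30) were among those higher. Isg20, an exonuclease gene, was lower, with a difference of -2.89 and means of 10.85, 8.39 and 12.51. Ly6e, an interferon-inducible surface protein gene, read 12.22, 12.06, 12.33 and 12.14 in 8uvmo-2, 12.44, 12.04, 12.40 and 11.42 in 8uvmo-3, and 6.22, 6.30, 6.37 and 6.38 in CD8bm1. CD8bm1 was near background in every array, at least 56.2-fold lower, and Ly6e was also under 8 in both IL13+ clones.

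Antigen presentation genes gave 7 higher and 10 lower of 26, most of them by less than 1, beside 15.8% and 14.7% of all genes. The peptide transporter genes Tap1 and Tap2 differed by -0.41 each, and the immunoproteasome genes Psmb8 and Psmb9 by -0.31 and -0.35. Cd74, the class II invariant chain, was called higher at 2.87 with a wide spread (9.56 ± 1.16, 8.86 ± 0.80 and 6.34 ± 0.47). H2-T24 was higher by 1.54, and H2-Q10 and Cd1d1 were lower, with differences of -1.56 and -1.10. Class I genes of this region are similar in sequence and may share signal.

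Ribosome biogenesis genes were slightly higher together: 28 of 38 were higher and 0 lower, with a median difference of 0.34, and none reached the minimum of 1. Utp18 and Ddx21 differed most, by 0.89 and 0.82. In the dormant clones the order was the other way, with 1 higher, 13 lower and a median of -0.21. Cell cycle and DNA replication genes were not separated by the test for the most part, 0 higher and 4 lower of 46, with a median of -0.39. Bub1 and Tpx2, of the mitotic spindle, were called at -1.35 and -1.16, and both lost the call without CD8bm1 replicate 3 (limma adjusted p = 0.155 and 0.0998). Bub1 also lost it without 8uvmo-3 replicates 2 and 4 (limma adjusted p = 0.0576). In the dormant clones 19 of the 46 were lower, where 19.5% of all genes were lower and 17.9% higher by that rule. Of 21 cell cycle control genes, 12 were higher and 3 lower, led by the antiproliferative gene Btg2 at 3.13, Gadd45b at 2.07 and Gadd45g at 1.72.

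Glycolysis and hypoxia genes were lower more often than higher, 13 against 3 of 33. Car9, the hypoxia-induced carbonic anhydrase, read 6.09, 6.34, 6.29 and 6.43 in 8uvmo-2, 6.17, 6.45, 6.12 and 6.24 in 8uvmo-3, and 12.37, 12.10, 11.79 and 12 in CD8bm1. It was near background outside CD8bm1, a difference of -5.80, at least 55.7-fold. Aldoc, a glycolytic aldolase gene, was called lower at -1.30, but the means were 6.93 in 8uvmo-2, 9.47 in 8uvmo-3 and 9.51 for CD8bm1, and the call was lost without 8uvmo-3 replicate 2 or 4 or CD8bm1 replicate 2. Lower members under the minimum included Ero1a (-0.98), Ankrd37 (-0.96), Egln3 (-0.79) and Pdk1 (-0.63). Slc2a3, a glucose transporter gene, and Ndrg1 were higher by 1.10 and 2.06, with adjusted p = 0.502 and 0.104 when the clone was a random block.

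Of 27 cholesterol and fatty acid genes, 3 were higher and 6 lower, beside 15.8% and 14.7% of all genes. Scd2, Insig1 and Dhcr7 were called at -1.06, -1.04 and -1.04. These 3 lay close to the threshold, and with 1 array left out Insig1 (-0.97 without CD8bm1 replicate 2) and Dhcr7 (-0.99 without CD8bm1 replicate 4, -0.96 without 8uvmo-3 replicate 4) no longer reached it. Of 28 amino acid and one-carbon genes, 6 were higher and 9 lower. Sesn2 and Trib3, called at -1.06 and -1.04, missed the minimum without CD8bm1 replicate 2 (-0.99 and -0.97), and Trib3 also without CD8bm1 replicate 1 (-0.95). Nupr1, a stress-induced chromatin factor gene, led them with a difference of -3.32 and means of 7.69, 8.06 and 11.20. Unfolded protein response genes were balanced, 7 higher and 7 lower of 24, and mostly within 0.5. The exception was the chaperone gene Dnajb9, at 9.57 ± 0.32, 10.44 ± 0.16 and 4.16 ± 0.27, a level under 5 in CD8bm1 in both states.

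Of 22 survival and death genes, 9 were higher and 4 lower, beside 15.8% and 14.7% of all genes. Bcl2l11, which encodes BIM, Casp6 and Casp4 were called at 1.45, 1.43 and 1.05. Lipid mediator genes gave 4 higher and 7 lower of 25, beside 15.8% and 14.7% of all genes. Their higher share is thus near that of all genes. Cysltr2, a leukotriene receptor gene, and Pla2g4a, the phospholipase that releases arachidonate, were higher by 3.60 and 3.37. Ptger3, a prostaglandin E2 receptor gene, was lower, with a difference of -2.84.

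Beside Itga1 and Car9, given above, several of the largest differences toward CD8bm1 came from genes outside these lists and not usually listed for T cells. Csn1s1 and Csn2 encode milk caseins. Csn1s1 read 6.90, 7.29, 7.82 and 7.23 in 8uvmo-2, 4.57, 4.77, 5.25 and 5.20 in 8uvmo-3, and 13.35, 13.20, 13.42 and 13.34 in CD8bm1. Its difference of -7.20 (SE 0.18; limma adjusted p = 6.64e-27), at least 147-fold, was the largest among the genes named by the rule. Csn2, Csn3 and Ambn, the enamel protein gene ameloblastin, had differences of -6.26, -5.08 and -5.54. All 4 were as high in dormant CD8bm1 (12.97, 12.64, 12.05 and 11.86) and in activated sAg3 (13.42, 12.81, 12.59 and 13.54), but Csn1s1, Csn2, Csn3 and Ambn were at 7.03, 6.20, 6.46 and 6.07 in sAg1.

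Cd36, a fatty acid transporter and scavenger receptor gene, read 4.54, 5.96, 5.11 and 5.52 in 8uvmo-2, 4.77, 4.79, 4.52 and 4.90 in 8uvmo-3, and 11.46, 10.99, 11.15 and 11.31 in CD8bm1. It was near background in both IL13-negative clones and in sAg1 (4.95) and high in sAg3 (10.74). Car5b, a mitochondrial carbonic anhydrase gene, and Adgrg7, an adhesion receptor gene, were high in CD8bm1 only: 11.72 ± 0.15 and 10.67 ± 0.06, against at most 6.60 in the other 4 activated clones. The noncoding RNA gene Lncenc1, the desmosomal gene Dsc2 and the choline transporter gene Slc44a1 had differences of -6.43, -5.02 and -3.21; a second, dimmer probe set of Slc44a1 gave -5.59.

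Toward the IL13-negative clones the largest difference among named genes, leaving out receptor segments, was that of Emb, which encodes embigin, a partner of lactate transporters. It read 10.79, 10.57, 10.38 and 10.50 in 8uvmo-2, 11.42, 11.11, 11.46 and 10.97 in 8uvmo-3, and 4.20, 4.41, 4.39 and 4.66 in CD8bm1, at least 89.6-fold. Tagap, a GTPase-activating protein gene of activated T cells, and Gimap4, a lymphocyte GTPase gene, had differences of 5.80 and 5.52. Tagap read 11.66, 11.82, 11.78 and 11.82 in 8uvmo-2, 12.35, 12.19, 12.27 and 12.20 in 8uvmo-3, and 5.96, 6.31, 6.20 and 6.36 in CD8bm1. For all 3 genes CD8bm1 was near background without overlap. Stap1, a signalling adaptor gene, was higher by 5.04, with CD8bm1 at 4.76 ± 0.06.

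Genes next to each other on a chromosome were called together in 5 runs of 3 or more. On chromosome 19, Ms4a4a, Ms4a4c, Ms4a4b, Ms4a6c and Ms4a6b, of the family of 4-span membrane proteins, were higher by 1.81, 4.89, 5.24, 1.03 and 5.15; the members are similar in sequence and may share signal. Ms4a4b read 9.98, 10.24, 10.00 and 10.28 in 8uvmo-2, 12.15, 11.23, 11.69 and 11.14 in 8uvmo-3, and 5.59, 5.91, 5.51 and 5.39 in CD8bm1, which was the lowest in every array. The other runs were Ltb, Tnf and Lta on chromosome 17, Ubac2, Gpr18 and Gpr183 on chromosome 14, Txnrd1, Eid3 and Chst11 on chromosome 10, and, lower, Pkia, Zc2hc1a and Il7 on chromosome 3.

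**Figure D5:**
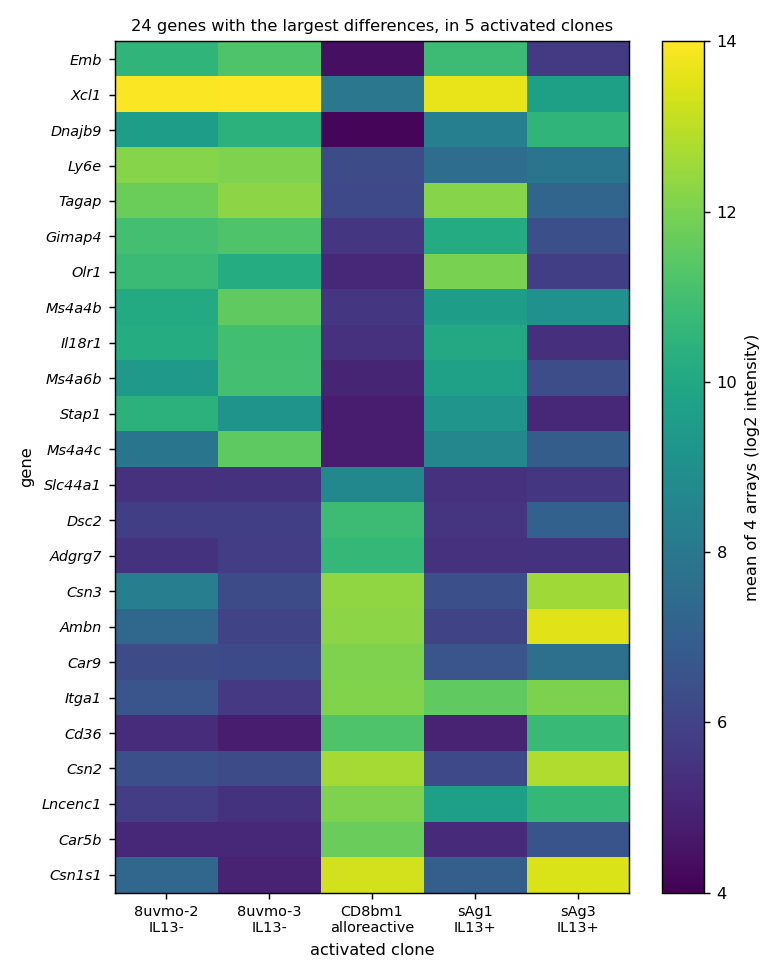
Mean log2 intensity of 4 arrays (colour) for the 12 genes with the largest called difference in each direction, leaving out predicted loci and receptor segments, in the 5 activated clones. Ly6e is far higher in 8uvmo-2 and 8uvmo-3 than in the other clones, the casein genes and Ambn are high in CD8bm1 and sAg3, and Car5b, Car9 and Adgrg7 stand out in CD8bm1 alone.

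The activated IL13+ clones give a position for each difference. Of the 609 probe sets called higher, CD8bm1 lay below all 4 other clones in 451, and of the 495 called lower it lay above all 4 in 389. Clone sAg3 was nearer to CD8bm1 than to the IL13-negative mean in 360 of the 609 and 232 of the 495, and sAg1 in 188 and 103. Both IL13-negative clones lay beyond all 3 others in 249 and 182. By gene, sAg1 was with the IL13-negative clones in Xcl1 (13.65), Ccl1 (13.59), Olr1 (11.97) and Tagap (12.16), while sAg3 was at 9.70, 8.72, 5.85 and 7.26. For Csf2, which split the IL13-negative clones, sAg1 (11.73) lay within the range of the 8uvmo-2 arrays given above. The Csf2 mean of sAg3 (7.67) lay within that of the 8uvmo-3 arrays. These counts describe the levels and share arrays with the calls.

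T cells of 1 clone share their rearranged receptor segments. Of 83 T cell receptor and immunoglobulin segment probe sets, 4 were called higher and 1 lower, where 2.6% and 2.11% of all probe sets were. Of the 4 higher ones, 3 match several alpha chain segments and are not named; 2 of these carry the same values, at 12.45 in 8uvmo-2 and 12.24 in 8uvmo-3 against 4.8 in CD8bm1. That difference of 7.54 was larger in size than that of any named gene, and both IL13-negative clones had it. The remaining one, Trav7d-4, was near background in all 3 clones and had a difference of 1.64. The lower one was Trbv1, a beta chain segment on chromosome 6, with means of 7.77 ± 0.08 in 8uvmo-2 and 6.87 ± 0.19 in 8uvmo-3, against 13.02 ± 0.15 in CD8bm1 and a difference of -5.70. It was at 7.82 and 8.01 in sAg1 and sAg3 and at 13.11 in dormant CD8bm1. Trgv1, a gamma chain segment on chromosome 13, was at 6.66 in 8uvmo-2 against 10.72 in 8uvmo-3 and 10.57 in CD8bm1. Trgv1 was not called, and these segments were picked after their values were seen.

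The IL13-negative clones also differed from each other. Between activated 8uvmo-2 and 8uvmo-3, 725 probe sets were called (3.1%), 389 higher in 8uvmo-2 (1.66%) and 336 in 8uvmo-3 (1.44%). Beside Il3 and Il10, 8uvmo-2 was higher in Nrp1 (neuropilin 1) by 4.26, Itgax by 4.14, Acpp by 3.96 and Asb2 by 3.94. It was lower in Klra5, a Ly49 receptor gene, in the chaperone gene Clgn, in Adgre5 (CD97) and in Cxcr6, with differences of -6.15, -5.69, -5.68 and -5.13. Sox4 and Krt20 were at 11.50 and 10.60 in 8uvmo-3 and near background in 8uvmo-2 and CD8bm1, so that their calls against CD8bm1 come from 1 clone.

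In 371 probe sets the IL13-negative clones lay on opposite sides of CD8bm1, each at adjusted p under 0.05, and in 9 of them both differences were 1 or more. The homing receptor gene Ccr7 was lower than CD8bm1 in 8uvmo-2 and higher in 8uvmo-3, with differences of -1.43 and 1.35. Frzb and Zc3h12c ran the same way, and Il10, Sh2d1b1 and Tmem185b the opposite way. Xist, the X inactivation RNA, was at 9.73 ± 0.37 in 8uvmo-3 and near background in 8uvmo-2 (5.58 ± 0.14) and CD8bm1 (5.15 ± 0.17); the 5 measured Y-linked genes were under 7 in all 3.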

How the data were processed

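The log2 values deposited by the authors were used as given, in a table of 35556 rows; Partek and RMA are named in the submitters' processing notes, with versions, settings and genome build not given in the sources used here. Platform annotation names a gene for 23410 rows (1621 with several symbols, which are counted and not named). limma (version 3.58.1, R 4.3.3) fitted all 38 arrays with 10 group means, moderated variances with a mean trend and Benjamini-Hochberg adjustment over the named rows; tests were two-sided. Where several probe sets have 1 symbol, the brightest stands for the gene. Named genes were 27 key genes, the 12 largest called in each direction, up to 4 called members of each of 34 lists (804 of 884 symbols measured), the 8 largest changes between states in each direction, and the 6 largest between the IL13-negative clones; other genes named beside them were picked from the lists after their values were seen. Members and lists were chosen with earlier results of these data known. Precision is limited by the number of arrays. The fit was tested on simulated data. Alternatives covered normalization, filters, thresholds, models and arrays left out.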

Additional observations from a re-analysis of the deposited data

Results flagged for a closer look

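Of 147 groups of 4 arrays tested for 49 genes, 6 held 1 array far from the other 3, where chance gives about 1 in 20. In CD8bm1 these were Ifng at 13.33 in replicate 2 (others 13.66 to 13.69), Tnf at 11.11 and Dnajb9 at 4.56 in replicate 3 (others 11.42 to 11.47 and 3.99 to 4.05), and Ambn at 11.88 in replicate 2 (others 12.36 to 12.40). In 8uvmo-2 they were Ccr8 at 5.22 in replicate 4 (others 5.66 to 5.67) and Ms4a6b at 8.55 in replicate 3 (others 9.59 to 9.66).

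The difference between IL13-negative clones and CD8bm1 was itself unequal in the activated and dormant states for 16 named genes, by the limma test of the change. The changes were 5.77 for Xcl1, 5.20 for Olr1, 4.83 for Ccl9, 4.38 for Ccl1, 4.34 for Il33, 4.30 for Il3, 4.23 for Crtam and 4.17 for Lta. In the other direction they were -3.14 for Dzip1, -3.18 for Lilr4b, -3.35 for Ifi203, -3.35 for Ifi206, -3.39 for Klrd1, -3.41 for Ctla4, -3.56 for Prss12 and -4.10 for Ripor2.

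Among the 12146 rows without a gene name, which no comparison above used, 287 met the rule, 232 higher and 55 lower in the IL13-negative clones.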

How the results depend on the processing

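Without a minimum difference, 7117 probe sets were called against CD8bm1 (3704 higher, 3413 lower), 6214 for the change between states (3219, 2995) and 6116 between 8uvmo-2 and 8uvmo-3 (3311, 2805). Tested against a difference of 1 with treat, these were 656 (383, 273), 298 (123, 175) and 345 (200, 145). With clone means as samples, 46 were called (14, 32). Leaving out 1 array gave 1095 to 1125 (594 to 624 higher, 486 to 507 lower), 946 to 1042 (428 to 497, 502 to 566) and 701 to 763 (359 to 427, 308 to 359). Without activated 8uvmo-3 replicates 1 and 3 the count was 1087, and without 2 and 4 it was 1110, a choice made after seeing the data. Same-numbered arrays of different groups did not meet the rule for pairing, since 5 of 12 correlations of deviations (-0.179 to 0.283) were over 0.1; between 8uvmo-2 and 8uvmo-3 these were 0.283, 0.172, 0.103 and -0.0386; with the replicate number as a block the counts were 1106, 961 and 724.

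Taken alone, 8uvmo-2 reversed the direction of Il10 (1.17), Eomes (-0.0275), Gata3 (0.08) and Pdcd1 (-0.44), and 8uvmo-3 alone that of Il13 (-0.0725), Gzmc (-0.91), Prf1 (-0.10) and Cd4 (-0.20); Gzmc was at -0.0350 without 8uvmo-3 replicates 1 and 3. None of these was called. Levels under 7 give bounds only, and genes near 14 are close to the top of the scale.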

Other observations

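Among markers of other cell types, 1 of 16 neutrophil, mast cell and basophil genes and 2 of 19 stromal, endothelial and epithelial genes were called higher in the IL13-negative clones, where 2.72% of all genes were. Mcpt8, a basophil protease gene, averaged 9.63 ± 0.60 in 8uvmo-2, 9.90 ± 0.44 in 8uvmo-3 and, for CD8bm1, 6.33 ± 0.53 (SD, n = 4 each), with sAg3 at 12.10. Fcer1a and Kit, which mark basophils and mast cells, were under 7 in all 3 clones. Lum, an extracellular matrix gene, varied widely among arrays (7.08 ± 1.44, 8.87 ± 1.50 and 4.79 ± 0.16), and Pecam1 averaged 8.31, 7.30 and 6.47. Array sums over the 19 genes of the stromal list were 7541 to 10112 in 8uvmo-2, 9489 to 11049 in 8uvmo-3 and 5151 to 5863 for CD8bm1, on the linear scale. The list includes Thy1, which is also a CD8 T cell identity gene, so these sums do not measure stromal signal alone. The part of the listed genes in the other results was not tested.

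Genes above 7 on chromosomes 10 (529 genes) and 15 (441 genes) had median differences of 0.26 and 0.25 between activated 8uvmo-3 and CD8bm1, and 0.19 and 0.21 in the dormant state, which is other arrays. For 8uvmo-2 the activated medians were 0.02 and 0.01.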
